A study of Arabidopsis thaliana with 6 samples.

Results

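Long stretches of the chromosome arms of *Arabidopsis thaliana* that collect small RNA (sRNA) reads were described across 6 sRNA libraries. An sRNA cluster is a genomic interval in which aligned sRNA reads were counted together. A cluster was taken as wide when it spanned at least 4000 bases and as lying in an arm when its start fell outside the pericentromeric ranges of its chromosome, which ran from 12.1 to 18.1 Mb on chromosome 1, from 1.6 to 6.6 Mb on chromosome 2 with its first 0.02 Mb added, from 10.6 to 16.6 Mb on chromosome 3, from 1.5 to 7.0 Mb on chromosome 4 and from 8.7 to 14.7 Mb on chromosome 5. This rule used width and position only, and 307 of 17131 clusters met it. Of these, 66 lay on chromosome 1, 69 on chromosome 2, 58 on chromosome 3, 45 on chromosome 4 and 69 on chromosome 5. They covered 1.942 Mb of the 90.626 Mb of the arms, and their median width was 5732 bases. The comparison classes were 10702 narrow arm clusters, 1240 wide pericentromeric clusters and 4882 narrow pericentromeric clusters.

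The sRNA came from Col-0 plants frozen at bolting, and the tissue is rosette leaves by the labels, while the study's methods speak of whole plants. Plants were grown at 22 °C under 12 h days, with 1 plant in each library. The wild-type (WT) group held 4 plants, which came from negative RNAi transformation events. The memory group held 2 first-generation *msh1* memory plants, in which the *MSH1*-RNAi transgene had been lost by segregation while the altered growth stayed. The MSH1 protein acts in both plastids and mitochondria. A single parent gave rise to all first-generation memory plants of the study, which are thus full sibs, and no transgene-null sib of normal growth was sequenced for sRNA, so memory and family cannot be told apart here. The tables held no transcript levels, so leaf markers could not be checked. Libraries held between 7966799 and 18134284 counts, which limits precision most in memory replicate 2, the shallowest. Levels are given as CPM, counts per 1000000 counts of a library scaled by the TMM method of edgeR, which sets the typical cluster equal between libraries. WT replicate 1, with the most counts, stood apart from the other WT totals.

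In plants, most sRNA of repeats is made by the RNA-directed DNA methylation (RdDM) pathway. RNA polymerase IV transcribes the repeat, RDR2 makes the copy double-stranded, DCL3 cuts it into siRNA, AGO4 carries the siRNA to transcripts of RNA polymerase V, and the methyltransferase DRM2 then methylates the DNA, including cytosines in the CHH context. Inverted repeats can bypass RDR2, since their transcripts fold back on themselves into long hairpins that Dicer-like enzymes cut directly. Wide sRNA loci in arms can be transposon remnants, repeat arrays or hairpins set among genes.

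Sequences from the RefSeq assembly TAIR10.1 are printed for the wide arm clusters on which the account turns most. First come matched stretches of the arms of the 2 longest inverted repeats, shown because such arms can pair in a hairpin. In Cluster_7406 (chr3:1961653-1970873) the arms were 3249 bases long and 98.9% identical, with 237 bases between them. The stretch shown was found without a difference in both arms and nowhere else in the genome. The right arm is read on the minus strand. In Cluster_4320 (chr2:818537-826557) each arm was 2233 bases long with no spacer, and capitals mark the 14 of 100 positions at which the arms differ.
Cluster_7406 left arm, chr3:1965885-1965984, plus strand: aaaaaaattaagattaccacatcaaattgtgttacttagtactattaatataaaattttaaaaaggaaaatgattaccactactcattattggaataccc
Cluster_7406 right arm, chr3:1968188-1968287, minus strand: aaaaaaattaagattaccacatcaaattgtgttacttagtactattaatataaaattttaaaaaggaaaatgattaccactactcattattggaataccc
Cluster_4320 left arm, chr2:819204-819303, plus strand: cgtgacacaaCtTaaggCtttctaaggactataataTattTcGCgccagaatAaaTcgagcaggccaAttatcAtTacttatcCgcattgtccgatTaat
Cluster_4320 right arm, chr2:823433-823532, minus strand: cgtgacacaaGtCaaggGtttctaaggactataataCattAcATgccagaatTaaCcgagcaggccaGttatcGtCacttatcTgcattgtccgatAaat

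The 3 clusters with the most sRNA included Cluster_4376, which holds a tRNA gene, and Cluster_12686, which holds a direct repeat of 228 bases. The tRNA-Thr gene AT2G03660 and both copies of the repeat unit are shown, with capitals at the 3 positions where the copies differ.
AT2G03660, tRNA-Thr, chr2:1113984-1114055, minus strand: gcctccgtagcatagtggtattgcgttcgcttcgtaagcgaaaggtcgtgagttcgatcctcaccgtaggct
Cluster_12686 copy 1, chr4:11040000-11040227, plus strand: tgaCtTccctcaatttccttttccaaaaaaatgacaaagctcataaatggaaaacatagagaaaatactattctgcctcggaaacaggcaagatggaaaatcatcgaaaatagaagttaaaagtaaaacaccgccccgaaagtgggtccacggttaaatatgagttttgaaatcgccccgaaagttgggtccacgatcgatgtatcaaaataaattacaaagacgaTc
Cluster_12686 copy 2, chr4:11040228-11040455, plus strand: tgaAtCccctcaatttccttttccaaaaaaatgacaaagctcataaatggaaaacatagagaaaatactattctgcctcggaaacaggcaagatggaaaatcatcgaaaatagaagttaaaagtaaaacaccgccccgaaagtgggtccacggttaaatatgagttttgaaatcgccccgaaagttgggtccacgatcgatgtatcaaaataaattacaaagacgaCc

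Neighboring Cluster_12272 (chr4:7879923-7887711) and Cluster_12273 (chr4:7889096-7893882), which were both lower in memory plants, hold 3 microRNA genes. Their mature microRNAs are shown with the seed, bases 2 to 8, in capitals, and no seed was shared among them. All lie on the minus strand.
ath-miR5996, Cluster_12272, chr4:7882848-7882869: uGACAUCCagauagaagcuuug
ath-miR841a-3p, Cluster_12272, chr4:7885296-7885316: aUUUCUAGugggucguauuca
ath-miR841a-5p, Cluster_12272, chr4:7885393-7885413: uACGAGCCacuugaaacugaa
ath-miR3932b-3p, Cluster_12273, chr4:7890590-7890610: aACUUUGUgaugacaacgaag
ath-miR3932b-5p, Cluster_12273, chr4:7890695-7890715: uUUGACGUgcucgaucugcuc

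The wide arm clusters were densest beside the pericentromere. Their number per Mb of arm was 9.7 within the first Mb outside the range and 4.63 in the next, and it was 1.42 beyond 10 Mb. Counted from the range, 97 started within 1 Mb and 139 within 2 Mb. Gene content and density varied with this distance. The median share of bases in exons of protein-coding genes was 0% in the first Mb and 79.6% beyond 10 Mb. The median density, in CPM per kb of cluster, did not fall steadily. It was 7.80 in the first Mb, 8.24 from 2 to 4 Mb, 1.22 from 8 to 10 Mb and 2.32 beyond 10 Mb. Each of these last bins held 17 clusters. Over all wide arm clusters, density was only weakly related to distance (Spearman's rho -0.13). Clusters also sat close to each other, with 31 of 302 neighboring pairs less than 10 kb apart and the closest pair 81 bases apart.

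**Figure D1:**
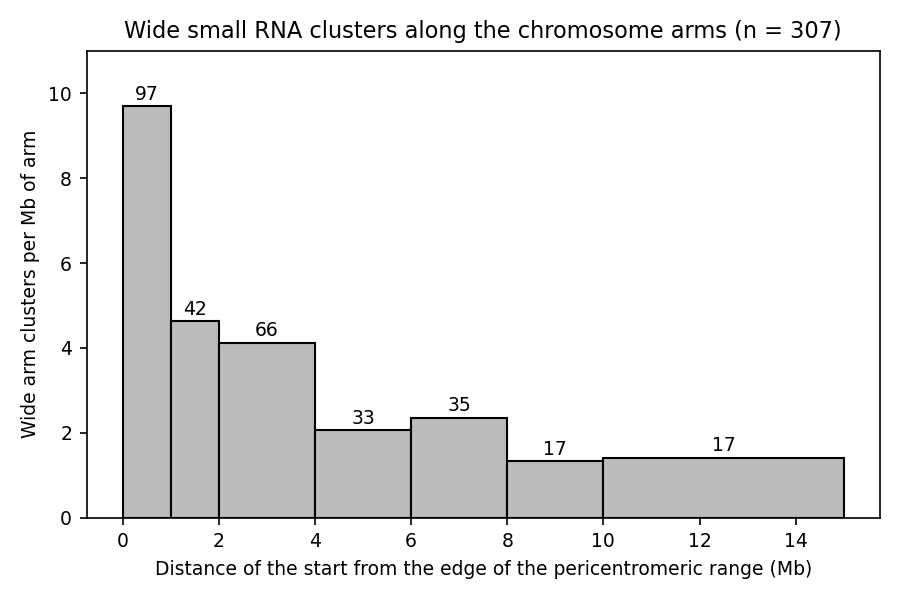
Wide arm clusters per Mb of chromosome arm (y axis) against the distance of their start from the edge of the pericentromeric range in Mb (x axis), with the number of clusters above each bar. The bar of the first Mb stands at 9.7 clusters per Mb and the bar beyond 10 Mb at 1.42.

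Pseudogenes, a class under which the RefSeq annotation also places transposon genes, made up much of these intervals. Of all bases in wide arm clusters, 41.7% were pseudogene, against 2.41% of the whole arms, 3.78% of narrow arm clusters and 47.3% of wide pericentromeric clusters. Exons of protein-coding genes took 22.2% of the bases, against 46.8% of the whole arms and 4.57% of wide pericentromeric clusters. At least 1 gene of some kind overlapped 297 of the 307 clusters, a pseudogene overlapped 203 of them and a protein-coding gene 189. The annotation seldom names a transposon, since only 31 of 4843 pseudogenes carried such a word, so the transposon content was not measured. A word for a transposon stood in the annotation of a gene in 11 of the 307.

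The 313 protein-coding genes inside wide arm clusters belonged in part to families that are known to form arrays. Disease resistance genes, which encode intracellular receptors of pathogen effectors, made up 12 of the 313 (3.83%), against 65 of 6841 genes (0.950%) in narrow arm clusters. Among the 12, AT4G16857, *RPP4*, *SNC1*, AT4G16900 and *RPP5* are neighbors on chromosome 4, so the 12 are not separate places in the genome. Genes of the cysteine/histidine-rich C1 family numbered 6 (1.92% against 0.482%) and defensin or thionin genes, which encode small antimicrobial peptides, also 6 (1.92% against 0.497%). Other families were closer in share, with 10 F-box genes, which encode substrate receptors of ubiquitin ligases (3.19% against 2.49%), 6 receptor-like kinase or protein genes (1.92% against 1.49%) and 3 pentatricopeptide genes, which encode organelle RNA-binding proteins (0.958% against 1.45%). Cytochrome P450 genes numbered 6 (1.92% against 1.01%), of which 3 lay in Cluster_8243 alone (*CYP71B23*, *CYP71B3* and *CYP71B24*). The annotation words for methyltransferases, which also take in a hydroxymethyltransferase, matched 4 genes, and there were 2 MADS or AGAMOUS-like genes, 1 Ulp1 protease gene and 1 S1 self-incompatibility gene. These shares are descriptions and were not tested.

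The disease resistance genes *RPP4*, *SNC1* and *RPP5* sit in the *RPP5* array of chromosome 4, and 4 wide arm clusters covered parts of it. These clusters were chosen after their values were seen. Cluster_12498 at *SNC1* (chr4:9502459-9506803) had 11.7, 9.65, 5.57 and 3.70 CPM in WT replicates 1 to 4 and 5.15 and 6.54 CPM in the memory libraries. Cluster_12503 at *RPP5* (chr4:9540961-9545628) had 7.87, 16.9, 11.4 and 17.5 CPM in WT and 4.76 and 14.2 CPM in memory. At both, the groups overlapped and the WT plants differed among themselves by more than 2-fold. Cluster_12493 at *RPP4* and Cluster_12499 had mean levels of 20.6 and 12.0 CPM. Cluster_12503 shared near-identical sequence with Cluster_12493 and Cluster_12498, so reads that match more than 1 copy cannot be assigned to a single gene.

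Base composition differed in its medians between wide and narrow clusters, which is given as a description. The median GC content was 38.9% in wide arm clusters, 35.6% in narrow arm clusters and 38.3% in wide pericentromeric clusters. Cytosines in the CHG context, the target of the methyltransferase CMT3, numbered 60.7 per kb at the median, against 46.2 and 52.8 per kb. In proportion, the medians for the CG context (44.5, 46.5 and 47.6 per kb) and the CHH context (278, 254 and 277 per kb) were nearer to each other.

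Repeats inside the clusters were searched by aligning each cluster to itself, with at least 100 bases and 80% identity. An inverted repeat was found in 26 of 307 (8.47%), a tandem direct repeat in 51 (16.6%) and a direct repeat with over 1000 bases between its copies in 69 (22.5%). The shares in wide pericentromeric clusters were 8.71%, 23.7% and 23.5%. Repeats of 500 bases or more by aligned length (arm length if inverted) were rarer, with 5 inverted, 11 tandem and 16 spaced cases. For tandem repeats this length can exceed the unit, as in Cluster_3239, where a match of 583 bases was offset by 112 bases. The longest tandem match was in Cluster_6901, an interval with *APD* genes of the RING/U-box family, the pyridoxine biosynthesis gene *PDX1.1* and its relative *PDX1L4*. It had 4281 aligned bases at 99.0% identity. The next were in Cluster_13622 (2063 bases, 80.2% identical), which lies over glycine/proline-rich protein and oleosin family genes, and in Cluster_6264 (1047 bases, 93.5% identical), which holds noncoding genes alone. In Cluster_12443 a direct repeat of 2579 bases was 100% identical between copies. The third longest inverted repeat, of 1627 bases at 90.9% identity, was in Cluster_5769.

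Many of the clusters had relatives elsewhere. At least 1 other stretch of the genome matched 141 of the 307 over 1000 bases or more at 90% identity, and for 50 of them a match lay in another wide arm cluster. Where there were matches, the median number was 2 and the highest was 99, for Cluster_15765. The remaining 166 had none at these limits.

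Inside wide arm clusters the sRNA level ranged from 1.03 to 12775 CPM as a mean over the 6 libraries, with a median of 42.9 CPM, and 66 clusters were above 100 CPM. Every one of the 307 had counts in every library, and the lowest single count was 5. The levels ordered the clusters alike in every library. Spearman's rho across the 307 clusters lay between 0.970 and 0.990 for pairs of WT libraries, was 0.971 for the memory pair and lay between 0.953 and 0.986 for pairs of a WT and a memory library. Across all clusters it was lower, between 0.816 and 0.910 over the same pairs. These are descriptions over clusters that differ in width and depth, and clusters are not replicates.

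The 3 highest clusters carried between 45.1% and 58.7% of the counts of all wide arm clusters in the 6 libraries. Cluster_4376 (chr2:1107476-1114272) had 18813, 11091, 9731 and 13365 CPM in WT replicates 1 to 4 and 8968 and 14682 CPM in memory replicates 1 and 2. The groups overlapped, and WT replicate 1 was the highest library. This cluster had no internal repeat and no genomic copy at the limits above, and 17.3% of it was pseudogene. Its log2 difference of memory over WT was -0.17 ± 0.43 (SE), and the sign turned when WT replicate 1 was left out (0.05).

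Cluster_7406, the inverted repeat whose arms are printed above, had 4543, 5871, 6971 and 6779 CPM in WT and 4694 and 5119 CPM in memory. Both memory values lay within the WT range. It holds AT3G06435, a protein-coding gene of unknown function, and the end of AT3G06433, a pseudogene related to the MtN3 nodulin family. The mean was 6041 ± 1108 CPM (SD, n = 4) in WT and 4907 ± 300.2 CPM (SD, n = 2) in memory. The log2 difference was -0.30 ± 0.29 (SE).

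Cluster_12686 (chr4:11035940-11042797), with the tandem repeat printed above and 3 pseudogenes, had 3631, 2094, 2583 and 3095 CPM in WT and 2252 and 1903 CPM in memory. Memory replicate 2 was below all WT values and memory replicate 1 was not. It was 47.8% GC, far above the 30.1% of Cluster_4376. Its log2 difference was -0.46 ± 0.30 (SE, adjusted p = 0.591, edgeR quasi-likelihood test with Benjamini-Hochberg adjustment over all tested clusters).

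The next 7 clusters by level had means between 247 and 374 CPM. They were Cluster_2969, Cluster_5702, Cluster_1243, Cluster_10876, Cluster_426, Cluster_15864 and Cluster_4245. Cluster_1243 lies at an F-box associated gene, AT1G31163, while Cluster_15864 and Cluster_4245 hold genes annotated as a Gag-Pol polyprotein and a Ta11-like non-LTR retrotransposon. Memory and WT values overlapped in all of these but Cluster_4245, where memory had 277 and 271 CPM and WT 238, 259, 224 and 214 CPM. In Cluster_15864, memory replicate 2 (410.3 CPM) stood above the other 5 libraries, which ranged from 215 to 270.1 CPM. None of the 10 highest clusters passed the adjusted test.

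**Figure D2:**
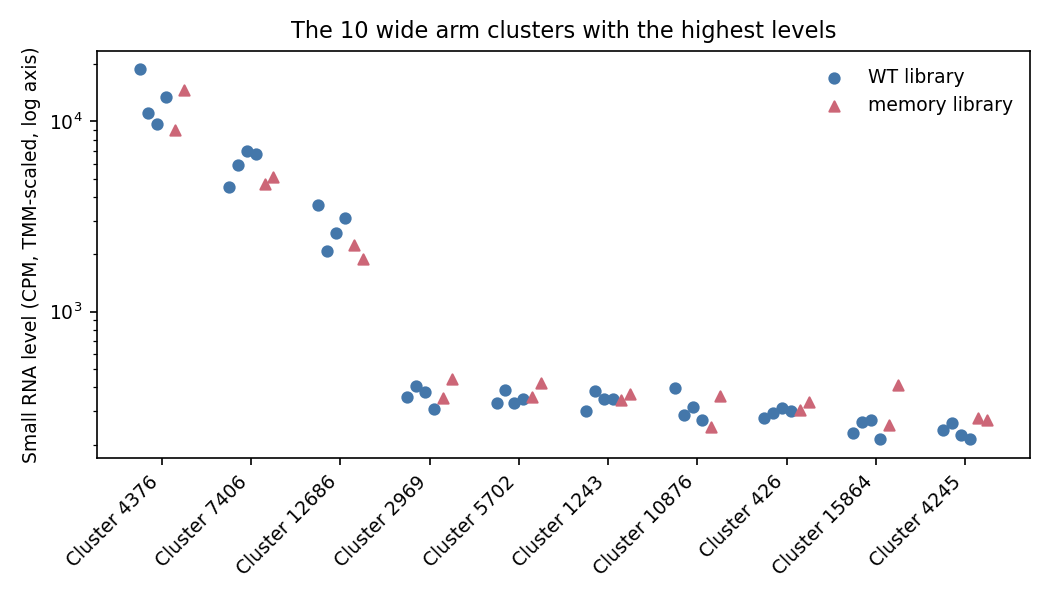
Small RNA level in CPM on a log axis (y axis) in each of the 6 libraries for the 10 wide arm clusters with the highest means (x axis), with circles for the 4 WT and triangles for the 2 memory libraries. The first 3 clusters lie between 1903 and 18813 CPM, and the other 7 lie between 214 and 443 CPM.

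Wide arm clusters together took a small share of all counts. The share was 3.801%, 4.67%, 4.28% and 4.45% in WT replicates 1 to 4 and 3.74% and 3.401% in the memory libraries. Both memory values were below all WT values. The means were 3.57% ± 0.239 (SD, n = 2) and 4.30% ± 0.369 (SD, n = 4), which differ by -0.728 percentage points (two-sided exact permutation, p = 0.133, which is the lowest value that 2 against 4 libraries allow; 0.667 after adjustment over 10 shares compared). The difference sat in the 3 clusters with the most counts, which took 1.69% and 1.67% of the memory libraries and from 2.183% to 2.498% of the WT libraries. Without those 3 clusters, an alternative chosen after seeing the data, the means were 1.89% and 1.99% and the groups overlapped (difference -0.0941, exact permutation p = 0.800).

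Density differed by class of cluster. The median density of wide arm clusters was 6.69, 6.44, 6.12 and 6.48 CPM per kb in WT and 6.48 and 6.95 CPM per kb in memory. In wide pericentromeric clusters it was between 1.23 and 1.49 CPM per kb over the 6 libraries. The typical wide cluster therefore carried 4.85 times as much sRNA per kb in the arms as in the pericentromere, with ratios between 4.40 and 5.40 in the 6 libraries (mean log2 ratio 2.28 ± 0.12 SD, n = 6, exact two-sided sign-flip permutation test, p = 0.03125, the smallest possible). This held for the median and turned for the sum of counts over the sum of kb (log2 ratio -0.91). The sum was again higher in the arms (1.84) without the 10 clusters with the most counts in the whole genome. That setting was added after seeing the data. All 6 libraries measured the same clusters, so the p-value speaks for agreement between libraries and not for other loci. Reads that match several places were aligned by the default rules of the aligner, and how they entered the counts is not stated.

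Against narrow arm clusters the order depended on the width limit. With 4000 bases, the wide clusters were higher in 6 of 6 libraries, by a mean log2 ratio of 0.59 ± 0.10 (SD, n = 6, exact sign-flip permutation test, p = 0.03125, the smallest possible). The p-value again speaks only for agreement between libraries, which measured the same clusters. Density is the level divided by width, and width also set these classes. The test therefore cannot decide whether wide arm clusters are denser than narrow ones for any reason other than this rule. With a limit of 3000 bases the ratio turned to -0.19, and with 6000 bases it was 0.85. As a sum of counts over kb at 4000 bases it was -0.85. Within the wide arm clusters, density rose weakly with width (rho 0.19 over 307 clusters) and fell with the share of exon bases (rho -0.30). Those of 4000 to 5000 bases had a median of 4.40 CPM per kb and those of 8000 bases or more 7.61 CPM per kb.

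**Figure D3:**
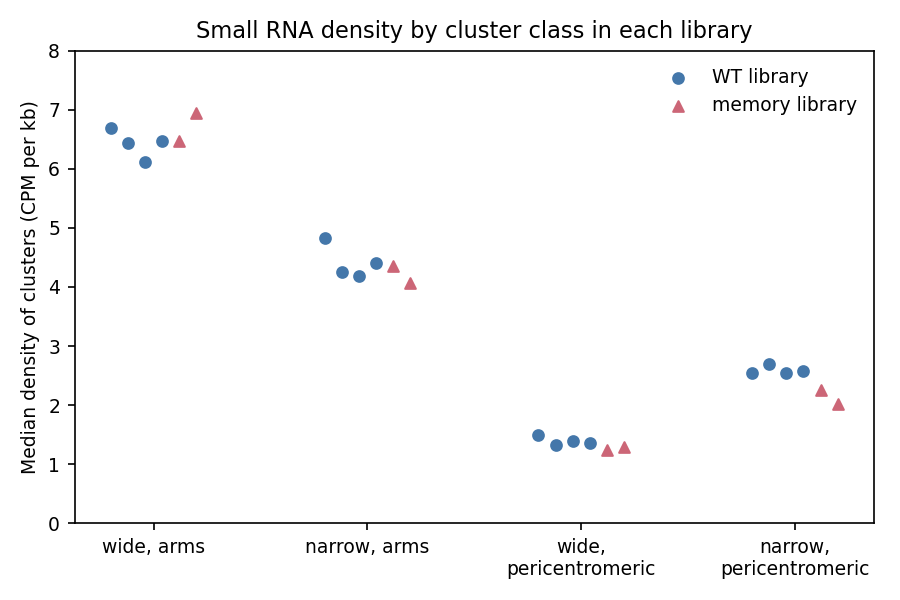
Median density in CPM per kb of cluster (y axis, from 0) for wide and narrow clusters of the arms and of the pericentromere (x axis) in each library, with circles for the 4 WT and triangles for the 2 memory libraries. Wide arm clusters lie between 6.12 and 6.95 CPM per kb in the 6 libraries, and wide pericentromeric clusters lie between 1.23 and 1.49 CPM per kb.

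Gene content split the wide arm clusters into 3 kinds, which were defined after seeing the data and are given as a description. The 203 with at least 1 pseudogene had a median level of 56.3 CPM and a median width of 6221 bases. The 77 with no pseudogene and over 50% of their bases in protein-coding genes had a median of 9.08 CPM and 4782 bases. The remaining 27 had a median of 65.2 CPM. In the gene-rich kind the median density was 1.64 CPM per kb, against 7.68 and 9.74 CPM per kb in the other kinds. The 26 clusters with an inverted repeat had a median of 14.6 CPM per kb, and the 51 with a tandem repeat had 9.57 CPM per kb.

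None of the 5 widest clusters was among the 10 highest, although the median level rose with width. It was 20.7 CPM at 4000 to 5000 bases and 83.0 CPM at 8000 bases or more. The widest, Cluster_3187 (chr1:21745655-21763945, 18291 bases), covers most of AT1G58602, a disease resistance gene of the NB-ARC class that runs past the end of the cluster, and the pseudogene AT1G58561 within it. It had 90.8, 85.8, 87.9 and 79.5 CPM in WT and 73.3 and 69.3 CPM in memory, so that both memory values were below all WT values. The log2 difference was -0.28 ± 0.12 (SE, edgeR unadjusted p = 0.0632). Cluster_5652, of 17981 bases, begins at *NRPE3B*, which encodes a subunit of RNA polymerase V, and had 293 CPM in WT replicate 1 against 173, 180.3 and 183 CPM in the other WT libraries, with 191 and 279 CPM in memory. Cluster_5706 (16680 bases) and Cluster_5711 (14196 bases, 81.8% pseudogene, with the microRNA gene *MIR416*) had means of 134 and 109 CPM. Cluster_6296 (15092 bases, 6 pseudogenes and *MAPR2*) had 34 genomic copies and a mean of 222 CPM, and its memory values of 241 and 258 CPM were above the 194 to 225 CPM of WT.

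Variation between WT plants was low in most wide arm clusters. The median coefficient of variation over the 4 WT libraries was 0.125 in the 307 clusters, all with a mean of at least 1 CPM, against 0.253 in narrow arm and 0.183 in wide pericentromeric clusters of at least 1 CPM. These classes differ in counts per cluster, with medians of 506, 50.7 and 123 counts. Among clusters with a mean of at least 20 CPM the medians were 0.101, 0.134 and 0.112. The value for the 307 was 0.205 when libraries were scaled by their size alone.

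The most variable clusters were high in the same library. Cluster_14285 (chr5:8571083-8578318) at the pseudogene AT5G24915 had 200.2 CPM in WT replicate 1 and 26.87, 30.29 and 27.03 CPM in the other WT libraries, with 27.39 and 26.97 CPM in memory. A single WT plant stood far above the other 5 plants. Its fitted log2 difference of -1.40 ± 1.02 (SE) came to -0.04 without that plant. WT replicate 1 was also the highest WT library in the other 4 of the 5 most variable clusters. At Cluster_4139 near the start of chromosome 2, with 2 pseudogenes, this library had 82.5 CPM, against 14.6, 52.1 and 18.5 CPM. At Cluster_13784, over the dicarboxylate transporter gene *DiT1*, it had 21.1 CPM, against 6.34 to 9.07 CPM. The other 2, at *TOC132*, a receptor of the chloroplast import machinery, and at the formin gene *AFH1*, had 3.27 and 3.67 CPM in WT replicate 1 and at most 1.23 CPM in the other WT libraries.

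The same kind of jump occurred in memory replicate 2. These 2 clusters were chosen after their values were seen. Cluster_4181 (chr2:243758-249279), 92.9% of which is the pseudogene AT2G01550, had 147 CPM in memory replicate 2, against 14.1 CPM in memory replicate 1 and 19.9, 21.9, 10.3 and 20.3 CPM in WT. Cluster_6057 (chr2:9187136-9195926), with the pseudogene AT2G21460 and 31 genomic copies, had 609.9 CPM in memory replicate 2, against 142 CPM in memory replicate 1 and 135, 110.4, 149 and 108 CPM in WT. The fitted log2 differences were 2.15 ± 0.78 and 1.58 ± 0.51 (SE), and they rested on that plant. Without it they were -0.37 and 0.17.

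All 307 wide arm clusters passed the filter on low counts and were tested for a difference between memory and WT. None had an adjusted p below 0.05 by the edgeR quasi-likelihood test with Benjamini-Hochberg adjustment over 15659 clusters, of which 0.00639% (1 cluster) were called. At an unadjusted p below 0.05 there were 31 (10.1%, against 10.5% of all tested clusters), of which 26 were higher in memory (8.47%) and 5 were lower (1.63%). The shares among all tested clusters were 4.92% higher and 5.56% lower. The split turned when libraries were scaled by their size alone, with 3 higher and 6 lower among the 307, against 1.52% and 5.09% of all. DESeq2 called 5 of the 303 wide arm clusters it gave an adjusted p, against 2.09% of all. The p-values measure the spread between these single plants. In bulk tissue, fewer cells that make an sRNA and less of it per cell cannot be told apart.

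The shift was small. The median log2 difference was 0.098 over the 307 and -0.027 over all tested clusters, a gap of 0.125, and 62.2% of wide arm clusters were above 0 against 47.7% of all. Scaling by library size alone moved the median of all clusters to -0.232 and that of wide arm clusters to -0.116, a gap of 0.117, so the sign of the median depended on the scaling. The gap lay between 0.077 and 0.241 in all 13 alternative fits. The middle of the wide arm clusters was narrow, with quartiles at -0.111 and 0.287. Only 5 clusters differed by 2-fold or more (1.63%), against 13.7% of all tested clusters, which have fewer counts. Over width, the medians were 0.069 for 4000 to 5000 bases and 0.163 for 8000 bases or more.

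The median log2 difference was 0.098 for wide arm clusters with a pseudogene, 0.132 for the gene-rich kind and 0.069 for the others. At an unadjusted p below 0.05, 9.85% of the first kind were higher and 1.48% were lower, near the 8.47% and 1.63% of all wide arm clusters. By chromosome the medians were 0.142, 0.124, 0.116, 0.041 and 0.048 from chromosome 1 to 5. The values of wide pericentromeric clusters lay on the other side, with a median of -0.100 and 33 higher and 70 lower of 1239. All classes share the same 6 libraries and the same scaling, and the difference between classes was not tested.

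Counted by the values alone, memory and WT did not overlap in 85 wide arm clusters. Both memory libraries were above all WT libraries in 69 (22.5%, against 9.85% of all clusters) and below in 16 (5.21%, against 11.1% of all). Memory replicate 2 was the highest library in 111 of the 307 (36.2%, against 23.9% of all clusters), and memory replicate 1 in 45 (14.7%, against 14.4%). The counts moved with single libraries. At an unadjusted p below 0.05, the 31 wide arm clusters came to 67 without memory replicate 1 (21.8%, against 15.9% of all) and to 16 without memory replicate 2 (5.21%, against 5.87% of all). Without WT replicates 2, 3 and 4 they came to 16, 17 and 15 (5.21%, 5.54% and 4.89%), against 7.41%, 7.68% and 7.24% of all. Without memory replicate 1, 185 did not overlap (60.3%, against 56.7% of all clusters), and without memory replicate 2, 139 did not (45.3%, against 42.0%). With library size alone 30 did not overlap (9.77%, against 14.5% of all), of which 9 were higher in memory (2.93%, against 4.34%).

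**Figure D4:**
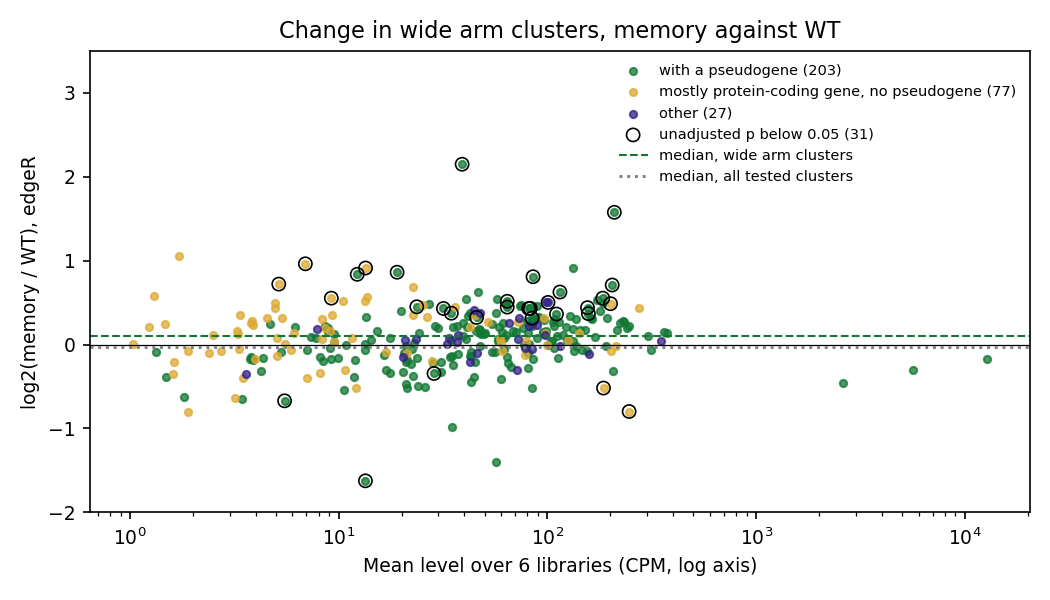
Log2 difference of memory over WT from edgeR (y axis) against the mean level in CPM on a log axis (x axis) for the 307 wide arm clusters, colored by gene content, with rings at an unadjusted p below 0.05. Of 31 ringed clusters 26 lie above 0, and the dashed median of wide arm clusters (0.098) lies above the dotted median of all tested clusters (-0.027).

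By a rule on size, an unadjusted p below 0.05 and no overlap between groups, 22 wide arm clusters were higher in memory (7.17%, against 4.50% of all tested clusters with at least 1 CPM) and 5 were lower (1.63%, against 5.35%). The 5 lower ones and the 5 with the largest positive differences are described. None passed the adjusted test. The largest negative difference was at Cluster_15795 (chr5:15645591-15651399), which is 76.3% pseudogene (AT5G39095). Its levels were 17.2, 16.7, 20.2 and 15.1 CPM in WT and 5.54 and 5.72 CPM in memory. The memory plants were close to each other, at 5.63 ± 0.127 CPM (SD, n = 2), against 17.3 ± 2.11 CPM (SD, n = 4) in WT. The log2 difference was -1.62 ± 0.20 (SE, edgeR unadjusted p = 0.000142, adjusted p = 0.140). Its direction and an unadjusted p below 0.05 were kept in all 13 alternative fits, and DESeq2 gave an adjusted p of 1.42e-06.

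The neighbors Cluster_12272 and Cluster_12273 were both lower in memory. The first, with the microRNA genes *MIR5996* and *MIR841a*, the late embryogenesis abundant protein gene *UNE15* and the histone H2A gene *HTA4*, had 295, 237, 318 and 296 CPM in WT and 140.2 and 191 CPM in memory. The second, with *MIR3932b*, had 198, 196, 214 and 216 CPM in WT and 129 and 159.5 CPM in memory. Both memory plants were below every WT plant at each. The log2 differences were -0.80 ± 0.20 and -0.52 ± 0.15 (SE, edgeR adjusted p = 0.401 and 0.437). Cluster_12272 also holds an inverted repeat with arms of 588 bases at 81.7% identity, which spans the mature miR5996. The counts cover whole clusters, so the microRNAs printed above cannot be told apart from other sRNA of these intervals.

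The other 2 lower clusters had lower levels than Cluster_12272 and Cluster_12273. Cluster_4405, with 3 pseudogenes, had 7.33, 6.56, 5.14 and 6.08 CPM in WT and 4.14 and 3.76 CPM in memory. Cluster_5696, at the pseudogene AT2G15870, had 27.9, 34.3, 29.1 and 31.8 CPM in WT and 23.57 and 25.01 CPM in memory. The groups did not overlap at either. These differences were close to the limit, and the unadjusted p was no longer below 0.05 in 9 of 13 alternative fits for the first and in 11 of 13 for the second.

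Cluster_8188 (chr3:9226354-9233152) had the smallest p among the higher clusters. Its levels were 67.6, 63.0, 70.7 and 71.1 CPM in WT and 111 and 128 CPM in memory. The WT plants were close to each other and both memory plants lay above them. The interval is 61.0% pseudogene (AT3G25450) and also holds the F-box gene AT3G25460 and a *U5.8* small nuclear RNA gene. The log2 difference was 0.81 ± 0.12 (SE, edgeR unadjusted p = 0.000534, adjusted p = 0.226). DESeq2 gave an adjusted p of 4.82e-06.

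The other 4 of the 5 largest positive differences were at Cluster_3031, Cluster_17083, Cluster_7285 and Cluster_16057. Cluster_3031 (chr1:20713545-20717755) covers nearly all of *ZKT*, a chloroplast protein with a PDZ domain, and part of *CPN60B*, a subunit of the chloroplast chaperonin. It had 5.40, 3.60, 6.27 and 5.72 CPM in WT and 10.5 and 9.97 CPM in memory. Cluster_17083 (chr5:26450160-26455953) covers *FNR1*, the leaf ferredoxin-NADP+ reductase, most of *ARO2* and part of AT5G66180. It had 12.9, 7.20, 9.49 and 11.8 CPM in WT and 16.2 and 23.0 CPM in memory. Both memory plants were above all WT plants at each, and the log2 differences were 0.96 ± 0.28 and 0.91 ± 0.29 (SE, edgeR adjusted p = 0.438 and 0.452). For each cluster the unadjusted p was no longer below 0.05 in 3 of 13 alternative fits. Exons made up 68.3% and 81.6% of these intervals. Whether fragments of abundant mRNA contributed to the counts was not tested, since the tables hold no read length or strand.

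Cluster_7285 lies within *BIG*, a gene for a very large protein needed for auxin transport, with exons over 98.5% of its bases. It had 3.93, 3.96, 4.18 and 4.84 CPM in WT and 5.85 and 8.17 CPM in memory. Cluster_16057, which is 56.9% pseudogene (AT5G43015) and touches the proteasome gene *RPT4A* and a receptor kinase gene, had 22.5, 10.3, 10.2 and 16.7 CPM in WT and 28.0 and 26.5 CPM in memory. The WT plants of the latter spread over more than 2-fold. The log2 differences were 0.72 ± 0.26 and 0.86 ± 0.35 (SE, edgeR adjusted p = 0.455 and 0.474), and the unadjusted p was no longer below 0.05 in 7 and in 9 of 13 alternative fits. The tandem repeat Cluster_6901 had 176, 174, 188 and 169 CPM in WT and 206 and 291 CPM in memory, with no overlap (log2 difference 0.49 ± 0.17 SE, edgeR adjusted p = 0.455). Leaving out memory replicate 2 gave 0.21 and leaving out memory replicate 1 gave 0.73, and the unadjusted p of Cluster_6901 was no longer below 0.05 in 6 of 13 alternative fits.

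**Figure D5:**
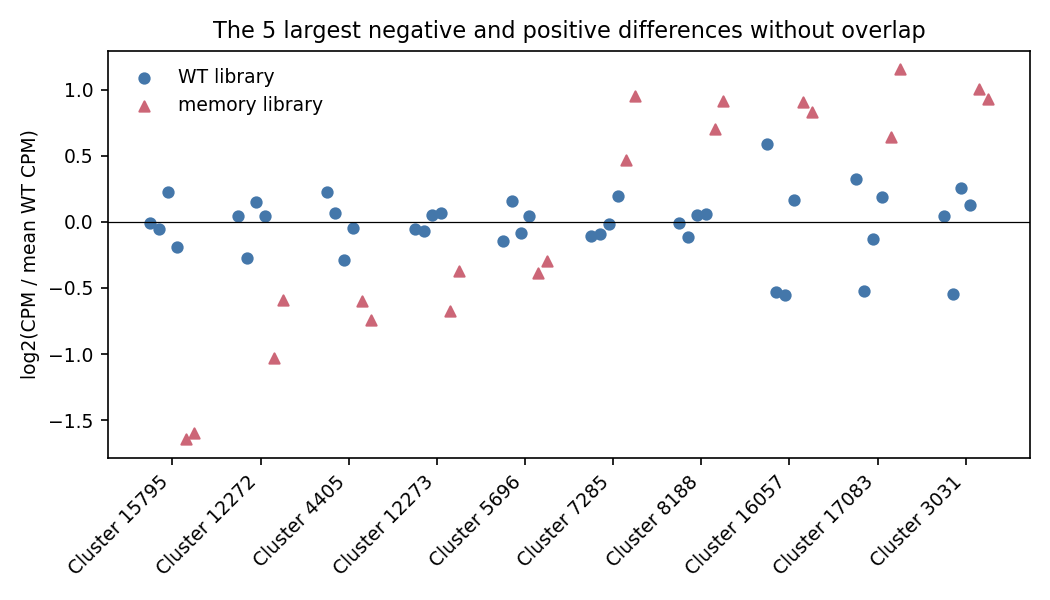
Log2 ratio of each library's CPM to the mean WT CPM (y axis) for the 5 largest negative and the 5 largest positive differences of the rule above among wide arm clusters (x axis), with circles for the 4 WT and triangles for the 2 memory libraries. Both triangles of Cluster_15795 (5.54 and 5.72 CPM) lie far below its circles (15.1 to 20.2 CPM), and both triangles of Cluster_8188 lie above its circles.

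DESeq2 called Cluster_15795, Cluster_8188, Cluster_12272, Cluster_12273 and Cluster_1432, with adjusted p between 1.42e-06 and 0.0476. The last overlaps the pseudogene AT1G33300 and had 96.7, 93.5, 102 and 95.6 CPM in WT and 125 and 176 CPM in memory. By edgeR its log2 difference was 0.63 ± 0.16 (SE, adjusted p = 0.410). Memory was higher in 2 of these 5 clusters and lower in 3.

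Lists of loci known for epigenetic change were looked up within 1 kb of the wide arm clusters. Of 7 genes known for silencing or natural epialleles (such as *FWA*, *SDC* and *QQS*), 5 had an sRNA cluster of some class nearby and none had a wide arm cluster. Of 12 loci of the mobile elements *ONSEN*, *EVADE* and *VANDAL21*, 12 had a cluster nearby and 1 a wide arm cluster. This was Cluster_13933 (chr5:5630258-5634965) at AT5G17125, the Copia-type retrotransposon *EVADE*, which is mobilized when DNA methylation is lost. It had 1.53, 1.01, 1.74 and 2.20 CPM in WT and 1.17 and 1.31 CPM in memory, among the lowest of the 307, and the groups overlapped. The 6 *TAS* loci, sources of trans-acting siRNA, had no wide arm cluster.

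Of 326 microRNA genes, 15 lay within 1 kb of 13 wide arm clusters. Cluster_1010, with *MIR395c* of the sulfate starvation family, was mostly pseudogene and had 131, 153, 129 and 139 CPM in WT and 145 and 128 CPM in memory. Apart from Cluster_12272 and Cluster_12273, none of the 13 had an unadjusted p below 0.05.

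Clusters beside the width limit had low means, apart from Cluster_3530 just below it. The narrowest 2 members, Cluster_3903 (4004 bases, over *QKY*) and Cluster_13243 (4008 bases, over AT4G35240), had means of 1.31 and 1.03 CPM. Just below the limit, Cluster_318 (3989 bases, over AT1G10170) had 1.32 CPM and Cluster_3530 (3978 bases, over AT1G65750 and AT1G65760) had 52.9 CPM.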

How the data were processed

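Small RNA of rosette leaves (as labeled) was sequenced from 4 WT and 2 memory plants (TruSeq libraries, BGISEQ-500, single-end 50-bp reads). The deposited tables hold raw read counts for 17131 clusters, the same intervals in each library. The authors aligned reads to TAIR10 with ShortStack, in its align-only mode with other settings at their defaults, and merged alignments with SAMtools. Reads that match several places were thus aligned by those defaults, and how they entered the counts is not stated. The paper's screen for differences was of sRNA of a single length, and whether the counts hold that length alone is not stated. The rules for clusters are not given in the sources used here. Counts cover whole clusters, without read length, strand or position inside.

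Counts were tested with edgeR 4.0.16 in R 4.3.3 (TMM scaling, filterByExpr, group as the only term, quasi-likelihood test, Benjamini-Hochberg adjustment over all tested clusters, limit 0.05). SE is the absolute log2 difference over the root of F. CPM is per 1000000 TMM-scaled counts, and 3 counts equal 0.200 to 0.490 CPM. Totals ranged from 7966799 to 18134284. The precision that this depth gives covers counting error only. Shares were compared by exact permutation over 15 arrangements, and densities by exact sign flips over 64 patterns (scipy 1.17.1). Fits were tested on simulated data. Alternatives were other scalings, no filter, DESeq2 1.42.0, a replicate block, leaving out each library, other widths and sums in place of medians.

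Genes and sequence came from RefSeq TAIR10.1. Repeats were found with blastn 2.17.0 at 100 bases and 80% identity or more, with tandem copies at most 50 bases apart and spaced copies at least 1000 bases apart. Genomic copies had 1000 bases and 90% identity or more. Clusters named in the text are the 10 highest, the 5 widest, the 5 largest positive and the 5 largest negative differences with an unadjusted p below 0.05, no overlap and at least 1 CPM, the 5 most variable over WT, those within 1 kb of listed loci, those at the width limit, and the 3 with the longest inverted and tandem repeats. Others were named after their values were seen. The clusters and lists were chosen with earlier results of these data known.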

Additional observations from a re-analysis of the deposited data

Results flagged for a closer look

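In 4 of 56 groups of 4 WT values, a single library stood apart from the rest by more than Dixon's 95% critical value. In each, this was WT replicate 1, whose total count also stood apart (gap over range 0.849). The clusters were Cluster_14285 at the pseudogene AT5G24915 (0.980), Cluster_5652 beside *NRPE3B* (0.917) and Cluster_8190 over the formin gene *AFH1* (0.870). The part of library depth in these 3 clusters was not tested. Chance flags about 1 in 20 groups, or 2.8 of 56, where groups are not picked by their spread. Cluster_14285 and Cluster_8190 were named for their variation over these same WT libraries, so the 4 flags cannot be set against that rate.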

How the results depend on the processing

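DESeq2 called 5 wide arm clusters and edgeR none. The 31 clusters at an unadjusted p below 0.05 came to 9 with library size alone, 77 for widths of 3000 bases or more, 15 for 6000 bases or more, and between 15 and 67 when 1 library was left out. The median log2 difference of all 307 wide arm clusters, 0.10, turned to -0.12 with library size alone, was 0.14 for 6000 bases or more, and ranged from 0.056 to 0.148 when 1 library was left out. With a replicate block over the libraries numbered 1 and 2, 2 of the 307 were higher and 1 lower at an unadjusted p below 0.05. Of all 14986 clusters tested there, 249 were higher and 288 lower, and the median of the 307 was 0.07. In the same libraries with no replicate block, 3 were higher and 2 lower, against 338 and 374 of all, with a median of 0.049. Deviations from the group means hardly correlated between same-numbered libraries (-0.06 over 15659 clusters). With only the libraries numbered 1 and 2, this cannot decide whether the numbers pair the plants. The share of counts differed by -0.665 points between same-numbered libraries. That difference ranged from -0.897 to -0.559 when 1 library was left out. The density ratio to wide pericentromeric clusters (log2 2.28) turned to -0.91 as a sum of counts over kb. The ratio to narrow arm clusters (log2 0.59) turned to -0.85 as a sum, to -1.09 as a sum without the 10 clusters with the most counts, a setting chosen after seeing the data, and to -0.19 for 3000 bases or more. With 1 library left out they ranged from 2.25 to 2.31 and from 0.55 to 0.61, with an exact permutation p of 0.0625, the smallest that 5 libraries allow. That p speaks only for agreement between libraries. In the ratio to narrow arm clusters, width set the classes and also divides the level. The median coefficient of variation was 0.205 with library size alone. Clusters with no overlap numbered 30 with library size alone and from 95 to 185 with 1 library left out (30.9% to 60.3%, against 25.6% to 56.7% of all clusters), a count that rises with fewer libraries. The log2 difference of Cluster_4376 turned to 0.05 without WT replicate 1 and to 0.15 without memory replicate 1, within a range of -0.57 to 0.15, and that of Cluster_4181 to -0.37 without memory replicate 2, within a range of -0.37 to 3.03.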
